A study of Mus musculus with 6 samples.

Results

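The genes described here encode the chaperones of the endoplasmic reticulum (ER) and the unfolded protein response that controls them. The 38 members were chosen by name, from a list of symbols matched to GENCODE M21, and all 38 were found among the 52550 gene identifiers of the count tables. By role they comprise 7 sensors and regulators, 15 chaperones and folding enzymes, 10 genes of ER-associated degradation and 6 genes of protein translocation into the ER. The count tables came from the cortex of C57BL6/J mouse pups at postnatal day 2, with polyA RNA sequenced from a single hemisphere in each library. The knockout pups (n = 3) were Slc7a5fl/fl; Emx1Cre+, and the control pups (n = 3) were Slc7a5fl/fl; Emx1Cre-, so that both genotypes carried the floxed alleles and only the knockout carried Cre. The study's design text calls the control pups wild type and the libraries of each genotype biological replicates. Slc7a5 encodes LAT1, a carrier of large neutral amino acids, and the comparison asks what its loss does to the cortical transcriptome. Emx1-driven Cre is active in the dorsal forebrain lineage of excitatory neurons and macroglia, so interneurons, microglia and vessel cells of a knockout cortex keep the gene.

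Proteins bound for the membrane or the cell surface enter the ER through the Sec61 channel, fold there with the help of chaperones and disulfide isomerases, and are pulled back to the cytosol for degradation when folding fails. When unfolded protein accumulates, the kinase and nuclease IRE1 splices Xbp1 mRNA, ATF6 is carried to the Golgi and cut into a transcription factor, and the kinase PERK slows translation and raises ATF4. XBP1 and ATF6 drive chaperone and degradation genes, whereas ATF4, which amino acid shortage also raises through the kinase GCN2, drives genes of amino acid supply. In neurons the same apparatus folds receptors, channels and adhesion proteins destined for neurites and synapses.

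The 6 libraries held between 8249436 and 10372582 reads assigned to genes. The deleted gene, Slc7a5 (chr8:121881150-121907694, GRCm38, minus strand), was at 15.6, 9.37 and 11.4 CPM in the knockout libraries lettered A, B and C, against 20.2, 40.7 and 26.1 CPM in the control libraries of the same letters. Every knockout library lay below every control library, and the gap was narrow in letter A. Its log2 change was -1.25 ± 0.28 (SE), which missed the threshold in edgeR over 14913 genes (adjusted p = 0.400) and passed with DESeq2 (adjusted p = 0.000695). Here and below, CPM are library-scaled read counts (TMM scaling), and log2 changes are knockout over control. Markers of excitatory projection neurons summed to 3220, 2860 and 3189 CPM in the knockout libraries and to 3278, 3313 and 2961 CPM in the control libraries, overlapping between genotypes. Choroid plexus markers summed to 5.45, 7.98 and 33.2 CPM in knockout A, B and C and to 2.62, 155 and 5.4 CPM in control A, B and C. Control B thus stood apart, followed by knockout C, and most of both sums was Ttr, at 144 CPM in control B and 27.2 CPM in knockout C. Reads outside exons were 27.4%, 27.9% and 27.8% of mapped reads in knockout A, B and C and 26.5%, 22.5% and 23% in control A, B and C. The knockout libraries thus all lay above the control libraries, with the narrowest gap again in letter A.

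Compared per length, in TPM, which scales read counts by exon length, the members spanned a wide range of levels. Calr, the calcium-binding lectin chaperone calreticulin, led with means of 451 TPM in knockout and 470 TPM in control cortex, followed by Hspa5, the abundant chaperone BiP, with 431 TPM in knockout and 460 TPM in control cortex. Sec61a1, the pore subunit of the translocation channel, followed with 374 TPM in knockout and 337 TPM in control cortex. The ranges over all 6 libraries of these neighbours overlapped, at 410 to 514 TPM for Calr, 380 to 483 TPM for Hspa5 and 280 to 434 TPM for Sec61a1. The sensors and regulators were spread over the range, with Atf6b at 122 TPM in knockout and 139 TPM in control cortex and Ern1, the gene of IRE1, at 1.59 TPM in knockout and 1.47 TPM in control cortex and Atf6 at 6.03 TPM in knockout and 5.75 TPM in control cortex. Derl3, a derlin of the degradation channel, was the lowest at 0.525 TPM in knockout and 0.965 TPM in control cortex. It had 4, 3 and 2 reads in the knockout and 7, 4 and 5 reads in the control libraries, and was the only member that failed the filter on low counts, which left 37 members tested.

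No member was called different between the genotypes. At an adjusted p under 0.05, edgeR called 0 of 37 members, where 5 of 14913 genes were called (0.0335%). With the letters as a replicate block the count was also 0 of 37, against 126 genes (0.845%), and DESeq2 called 0 as well. At an unadjusted p under 0.05 there were 4 members lower in the knockout (Xbp1, Manf, Edem1 and Edem3), where 3.81% of all genes were, and 0 higher, where 3.19% were. The knockout libraries all lay below the control libraries for 4 tested members (Xbp1, Pdia6, Edem1 and Edem3; background 6.28%) and all above them for 0 (background 5.89%). The fitted change was below 0 for 27 members and above 0 for 10, so that 73.0% lay below 0 against 49.8% of all genes. In every letter 12 members were lower in the knockout, where 16.8% of all genes were. Higher in every letter were 0 members, where 2413 of 14913 genes were.

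These differences were small. The median log2 change over the 37 members was -0.081, against 0.0011 over all genes, and the members ran from -0.57 for Edem1 to 0.13 for Creb3l2. The median of the knockout minus control difference was -0.021 in letter A, -0.17 in letter B and -0.084 in letter C. Without control B the median was -0.034 with 26 members lower, so the size of the median hung partly on that library. The 95% intervals bounded a rise at under 1.5-fold (log2 0.58) for 35 of the 37 members and for 10998 of all 14913 genes. The exceptions among the members were Ern1, with an upper bound of 0.68, and Creb3l2, with 0.65. A fall was bounded at under 1.5-fold for 34 of the 37 members and for 11855 of all genes. Whether fewer cells of a type or less RNA per cell underlies a lower level cannot be told apart in whole tissue.

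**Figure D1:**
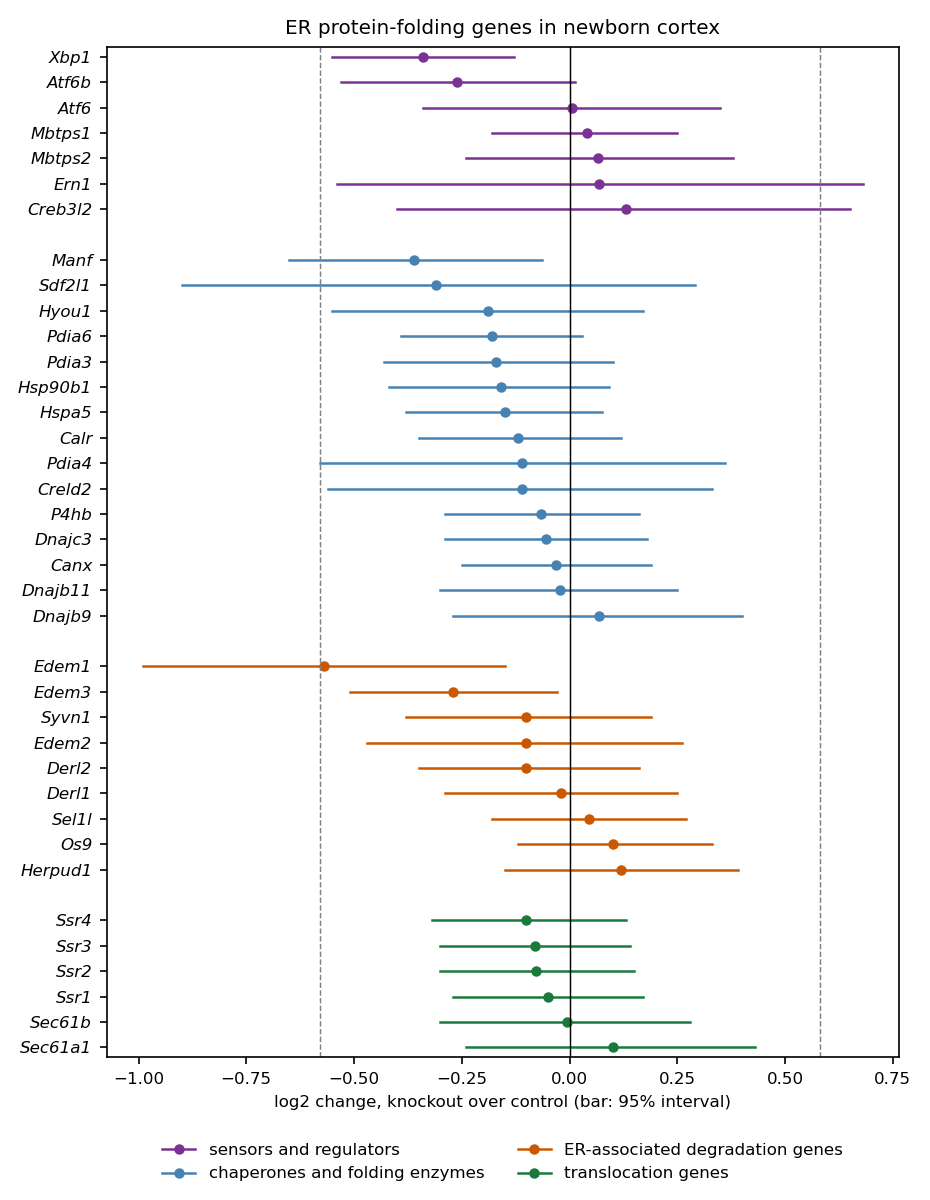
Log2 change, knockout over control (horizontal axis), of the 37 tested members, grouped by role; points are edgeR estimates, bars 95% intervals, the solid line 0 and dashed lines a 1.5-fold change either way. The intervals of Xbp1, Manf, Edem1 and Edem3 lie below 0, none lies above 0, and 35 of the 37 end below the upper dashed line.

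Among the 7 sensors and regulators, Xbp1 stood out as the member with the smallest p. It encodes the transcription factor that IRE1 activates by splicing (chr11:5520659-5525893, GRCm38, plus strand), and spliced and unspliced mRNA are summed in a gene count. Xbp1 was at 85, 77.7 and 89 CPM in knockout A, B and C, against 104, 105 and 110 CPM in control A, B and C. The genotypes did not overlap, and each knockout library was lower than the control of its letter. The log2 change was -0.34 ± 0.10 (95% interval -0.55 to -0.13; unadjusted p = 0.00314), with a mean of 83.9 ± 5.74 CPM in knockout and 106 ± 3.04 CPM in control cortex (SD, n = 3 each). The adjusted p over all genes was 0.441 in the unpaired edgeR test and 0.0713 with the replicate block, so Xbp1 did not pass in either. With 1 library left out its log2 change stayed between -0.39 and -0.29.

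The other sensors were flat or spread. Atf6b, the paralog of the ER stress sensor ATF6 (chr17:34647146-34655074, plus strand), was at 89.4, 91.9 and 105 CPM in the knockout against 91.2, 132 and 119 CPM in the control libraries. Letter A showed hardly any gap, and knockout C lay above control A (log2 change -0.26 ± 0.13, edgeR adjusted p = 0.728). Atf6 itself was at 12.6, 17.8 and 17 CPM in the knockout and 15.1, 14.5 and 17.6 CPM in the control libraries, with a log2 change of 0.0048 ± 0.17; whether the paralogs differed from each other was not tested. Creb3l2, a membrane-tethered transcription factor that is also cut in the Golgi (chr6:37327255-37442146, minus strand), was at 4.94, 8.72 and 5.82 CPM in the knockout and 5.03, 5.83 and 7.03 CPM in the control libraries. Knockout B was the highest library and knockout A the lowest (log2 change 0.13 ± 0.25).

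Mbtps2, the Golgi protease that makes the second cut in ATF6 (chrX:157535371-157598715, minus strand), was at 22.8, 31.6 and 24.7 CPM in the knockout against 24, 23.6 and 28.1 CPM in the control libraries. Again knockout B alone was high, and the log2 change was 0.067 ± 0.15. Mbtps1, the protease of the first cut, had a log2 change of 0.04 ± 0.10 and Ern1 one of 0.068 ± 0.29, the widest error of the group. Thus 2 of the 7 sensors had a fitted change below 0, and 1 of them, Xbp1, an unadjusted p under 0.05. The median of the group was 0.04, and it was -0.089, -0.026 and -0.027 without knockout B, knockout C and control A, so its direction hung on single libraries.

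Of the 15 chaperones and folding enzymes, 14 had a fitted change below 0 and 1, the BiP cochaperone Dnajb9, above it (0.069 ± 0.16). Their median log2 change was -0.12, but it differed between letters, at -0.021 in A, -0.24 in B and -0.084 in C, and 6 members were lower in every letter. Control B, the library with the highest choroid plexus sum, also had the highest summed chaperone level. The sums were 2023, 1923 and 1965 CPM in knockout A, B and C against 2003, 2310 and 2137 CPM in control A, B and C. Without control B the median was -0.04 with 12 of 15 lower, and without control A it was -0.18 with 14 of 15 lower. The part of choroid plexus RNA and of reads outside exons in this difference was not tested.

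Manf had the smallest p of the chaperones. It encodes a small secreted protein with neurotrophic activity that is held in the ER by binding BiP (chr9:106838312-106891979, minus strand). Manf was at 56.2, 63.4 and 56.1 CPM in the knockout against 58.8, 91 and 75.9 CPM in the control libraries. Control A was lower than knockout B, so the genotypes overlapped, although each knockout was lower than the control of its letter. The log2 change was -0.36 ± 0.14 (95% interval -0.65 to -0.063), and the adjusted p was 0.635 in the unpaired edgeR test. It passed only with both letter A libraries left out of the paired fit (log2 change -0.47, adjusted p = 0.0318).

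Pdia6, a disulfide isomerase that also acts on the ER stress sensors (chr12:17266545-17284770, plus strand), was at 210, 202 and 194 CPM in the knockout against 216, 239 and 232 CPM in the control libraries. The genotypes did not overlap but knockout A and control A lay close (log2 change -0.18 ± 0.10, edgeR adjusted p = 0.766). Hspa5, the BiP gene whose induction is the usual readout of an unfolded protein response (chr2:34771970-34777547, plus strand), was at 543, 450 and 566 CPM in the knockout against 551, 583 and 600 CPM in the control libraries. Knockout B was the lowest library, and knockout C overlapped the controls. The log2 change of Hspa5 was -0.15 ± 0.11, and its 95% interval of -0.38 to 0.075 ends at 0.075 above no change on the log2 scale.

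Hsp90b1, the ER member of the HSP90 family (chr10:86690209-86705509, minus strand), was at 115, 106 and 125 CPM in the knockout against 110, 153 and 125 CPM in the control libraries. Control B alone was high and the other libraries overlapped (log2 change -0.16 ± 0.12). The lectin chaperones Calr and Canx, which bind newly glycosylated proteins, had log2 changes of -0.12 ± 0.11 and -0.031 ± 0.11. Among the other disulfide isomerases the log2 changes were -0.17 ± 0.12 for Pdia3, -0.11 ± 0.22 for Pdia4 and -0.067 ± 0.11 for P4hb, which is also a subunit of the collagen hydroxylase. Hyou1, the exchange factor of BiP, had -0.19 ± 0.17, and the BiP cochaperones Dnajc3 and Dnajb11 had -0.054 ± 0.11 and -0.022 ± 0.13. Sdf2l1, a partner of Dnajb11, had few reads, with means of 3.38 CPM in knockout and 4.23 CPM in control cortex, and its log2 change of -0.31 ± 0.28 had the widest error of the chaperones. Creld2, a stress-induced ER protein with a putative isomerase function, had -0.11 ± 0.21.

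Promoters of chaperone genes carry the ER stress response element (ERSE), at which ATF6 and XBP1 act together with NF-Y. The sequences are shown because the element was more frequent among the members' windows than among all windows. The members were chosen by name and include such chaperone genes, so the higher share is no independent evidence. RefSeq windows (GRCm38.p6) running from 250 bases before to 50 bases after the start of a gene were at hand for 32 of the 38 members. The ERSE, searched on both strands as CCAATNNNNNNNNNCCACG, was in a window of 9 of these 32 members (28.1%), against 37 of 27025 genes with a window (0.137%), or 39 of 32851 windows (0.119%). They were the chaperones and folding enzymes Calr, Canx, Creld2, Dnajc3, Hsp90b1, Hspa5 and Pdia6 and the degradation genes Derl3 and Syvn1. The windows of the chaperones and folding enzymes Dnajb9, P4hb, Pdia3, Pdia4, Sdf2l1 and Dnajb11 held no ERSE. Each match follows in the direction of the element, with its fixed ends in capitals.
Hspa5: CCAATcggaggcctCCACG
Calr: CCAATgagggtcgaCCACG
Derl3: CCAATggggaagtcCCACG
Hsp90b1, distal match: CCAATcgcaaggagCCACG
Hsp90b1, proximal match: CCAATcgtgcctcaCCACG
Canx: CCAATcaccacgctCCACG
Pdia6: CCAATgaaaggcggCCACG
Dnajc3: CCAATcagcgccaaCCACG
Creld2: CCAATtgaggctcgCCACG
Syvn1: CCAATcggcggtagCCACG
The distal and proximal matches of Hsp90b1 begin 212 and 107 bases before the start, and the match of Hspa5 begins 65 bases before it.

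ERSE-II, searched as ATTGGNCCACG, was in the windows of Herpud1 and Dnajb11 (6.25% of the 32 members, against 0.0444% of genes and 0.0365% of windows). The UPRE core TGACGTGG, at which XBP1 acts, was in 0 of the 32 members, against 0.714% of genes and 0.676% of windows. The amino acid response core TGATGNAA, at which ATF4 acts, was in 1 of the 32, that of Herpud1 (3.12%), against 4.51% of genes and 3.97% of windows. The ERSE and ERSE-II patterns end in the same 5 letters, but in no member did they overlap. A match describes the letters of the window and is no evidence of binding. Of the 11 members with an ERSE or ERSE-II match, 10 were tested, and their median log2 change was -0.10 with 9 below 0. The 21 members whose windows held neither had a median of -0.081 with 14 below 0, so members with and without the element lay close together; this difference was not tested.

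The windows of the members given library by library that held a match are printed 5′ to 3′ along the gene, with matches in capitals. That of Pdia6 covers chr12:17266339-17266638 (plus strand), that of Hspa5 chr2:34771840-34772139 (plus strand), that of Hsp90b1 chr10:86705395-86705694 (minus strand) and that of Herpud1 chr8:94386179-94386478 (plus strand). In the window of Herpud1 the first run of capitals is the amino acid response core, read on the opposite strand, and the next is ERSE-II.
Pdia6: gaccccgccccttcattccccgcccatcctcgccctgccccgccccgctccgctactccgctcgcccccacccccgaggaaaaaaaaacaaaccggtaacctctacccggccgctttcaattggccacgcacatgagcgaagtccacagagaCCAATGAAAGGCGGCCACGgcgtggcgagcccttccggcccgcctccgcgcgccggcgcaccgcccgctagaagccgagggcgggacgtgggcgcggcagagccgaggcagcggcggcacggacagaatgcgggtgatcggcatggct
Hspa5: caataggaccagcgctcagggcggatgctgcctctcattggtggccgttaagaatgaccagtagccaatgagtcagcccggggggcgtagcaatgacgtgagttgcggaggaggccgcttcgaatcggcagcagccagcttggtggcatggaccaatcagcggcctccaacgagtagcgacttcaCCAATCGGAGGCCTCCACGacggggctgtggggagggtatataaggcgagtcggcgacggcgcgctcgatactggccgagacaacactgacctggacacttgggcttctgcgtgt
Hsp90b1: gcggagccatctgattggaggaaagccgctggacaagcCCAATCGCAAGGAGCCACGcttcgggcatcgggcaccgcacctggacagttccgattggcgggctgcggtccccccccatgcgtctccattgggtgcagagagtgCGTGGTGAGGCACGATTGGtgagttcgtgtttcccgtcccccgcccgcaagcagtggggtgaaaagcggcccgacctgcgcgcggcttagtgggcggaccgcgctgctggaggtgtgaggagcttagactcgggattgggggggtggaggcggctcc
Herpud1: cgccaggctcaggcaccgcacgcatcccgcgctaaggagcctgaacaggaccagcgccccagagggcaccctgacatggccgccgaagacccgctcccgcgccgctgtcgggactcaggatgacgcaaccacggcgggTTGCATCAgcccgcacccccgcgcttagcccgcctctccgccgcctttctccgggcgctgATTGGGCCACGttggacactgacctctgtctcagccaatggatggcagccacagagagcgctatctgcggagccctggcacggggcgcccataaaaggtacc

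The genes of ER-associated degradation held the lowest log2 change of the members, in the EDEM family of mannosidase-like proteins, which mark misfolded glycoproteins for removal. Edem1 (chr6:108828641-108859356, plus strand) was at 8.44, 13.7 and 8.21 CPM in the knockout against 13.8, 15 and 16.4 CPM in the control libraries. The genotypes did not overlap, yet knockout B lay just under control A. Its log2 change of -0.57 ± 0.20 (95% interval -0.99 to -0.15, unadjusted p = 0.0109) was the lowest of the members and corresponds to 67.5% of the control level. It did not pass the edgeR test (adjusted p = 0.542), and passed only in the paired fit without letter B (log2 change -0.85, adjusted p = 0.00525).

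Edem3 (chr1:151755371-151822051, plus strand) was at 45.8, 42.1 and 41.1 CPM in the knockout against 49.4, 56.8 and 49.4 CPM in the control libraries. The genotypes did not overlap and every letter showed the same direction, with a log2 change of -0.27 ± 0.11 (95% interval -0.51 to -0.03, edgeR adjusted p = 0.666). Edem2, which begins the mannose trimming, differed less, with a log2 change of -0.10 ± 0.17. Its knockout was lower in letter B (-0.42), higher in letter A (0.14) and level in letter C (0.0078). The difference between the paralogs was not tested.

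Of the recognition and retrotranslocation factors, Os9, the lectin that reads the trimmed glycan (chr10:127095650-127121131, minus strand), was at 77.9, 70.8 and 82.1 CPM in the knockout against 70.8, 77.2 and 67 CPM in the control libraries. Knockout B and control A were level, so the genotypes overlapped (log2 change 0.10 ± 0.11). Herpud1, a stress-induced scaffold of the ligase complex (chr8:94386438-94395377, plus strand), was at 49.1, 57.6 and 46.2 CPM in the knockout against 39.8, 50.2 and 51.1 CPM in the control libraries. It was higher in the knockout in letters A and B and lower in letter C (log2 change 0.12 ± 0.13).

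Sel1l and Syvn1, the adaptor and the ubiquitin ligase of that complex, had log2 changes of 0.045 ± 0.10 and -0.10 ± 0.13, and the derlins Derl1 and Derl2 had -0.019 ± 0.13 and -0.10 ± 0.12. Of the 9 degradation genes tested, 6 lay below 0, with a median of -0.10. That median was -0.015 without control C and 0.022 without knockout B, so the group as a whole showed no direction that outlasted the loss of a library. The summed level was 528, 492 and 550 CPM in the knockout and 524, 527 and 538 CPM in the control libraries, with the genotypes overlapping.

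The translocation genes were the most uniform, with log2 changes between -0.10 and 0.10, and none reached an unadjusted p under 0.05. Ssr4, Ssr3 and Ssr2 encode subunits of the translocon-associated protein complex, which helps nascent chains through the channel. Ssr4 (chrX:73787028-73790830, plus strand) was at 97.3, 117 and 105 CPM in the knockout against 104, 123 and 115 CPM in the control libraries, lower in every letter but with overlap (log2 change -0.10 ± 0.11). Ssr3 (chr3:65379655-65392623, minus strand) was at 163, 183 and 149 CPM in the knockout against 171, 180 and 174 CPM in the control libraries. Knockout B was the highest library and the other knockout libraries lay below the controls; the log2 change was -0.081 ± 0.11.

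Ssr2 (chr3:88575876-88588419, plus strand) was at 129, 127 and 113 CPM in the knockout against 121, 143 and 125 CPM in the control libraries, again with overlap (log2 change -0.077 ± 0.11). Ssr1, the remaining subunit, had -0.051 ± 0.10. Sec61a1 (chr6:88503579-88518905, minus strand) was at 857, 547 and 751 CPM in the knockout against 712, 571 and 733 CPM in the control libraries. Letter B was the lowest in both genotypes, so the spread between letters exceeded that between genotypes (log2 change 0.10 ± 0.15). On counts summed over both strands its log2 change was -0.065. Sec61b, a small subunit of the channel, had -0.0062 ± 0.14, and the median of the group was -0.064, or -0.014 without control B, -0.10 without control A and 0.014 in the paired fit without letter B, where 3 of 6 lay below 0.

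**Figure D2:**
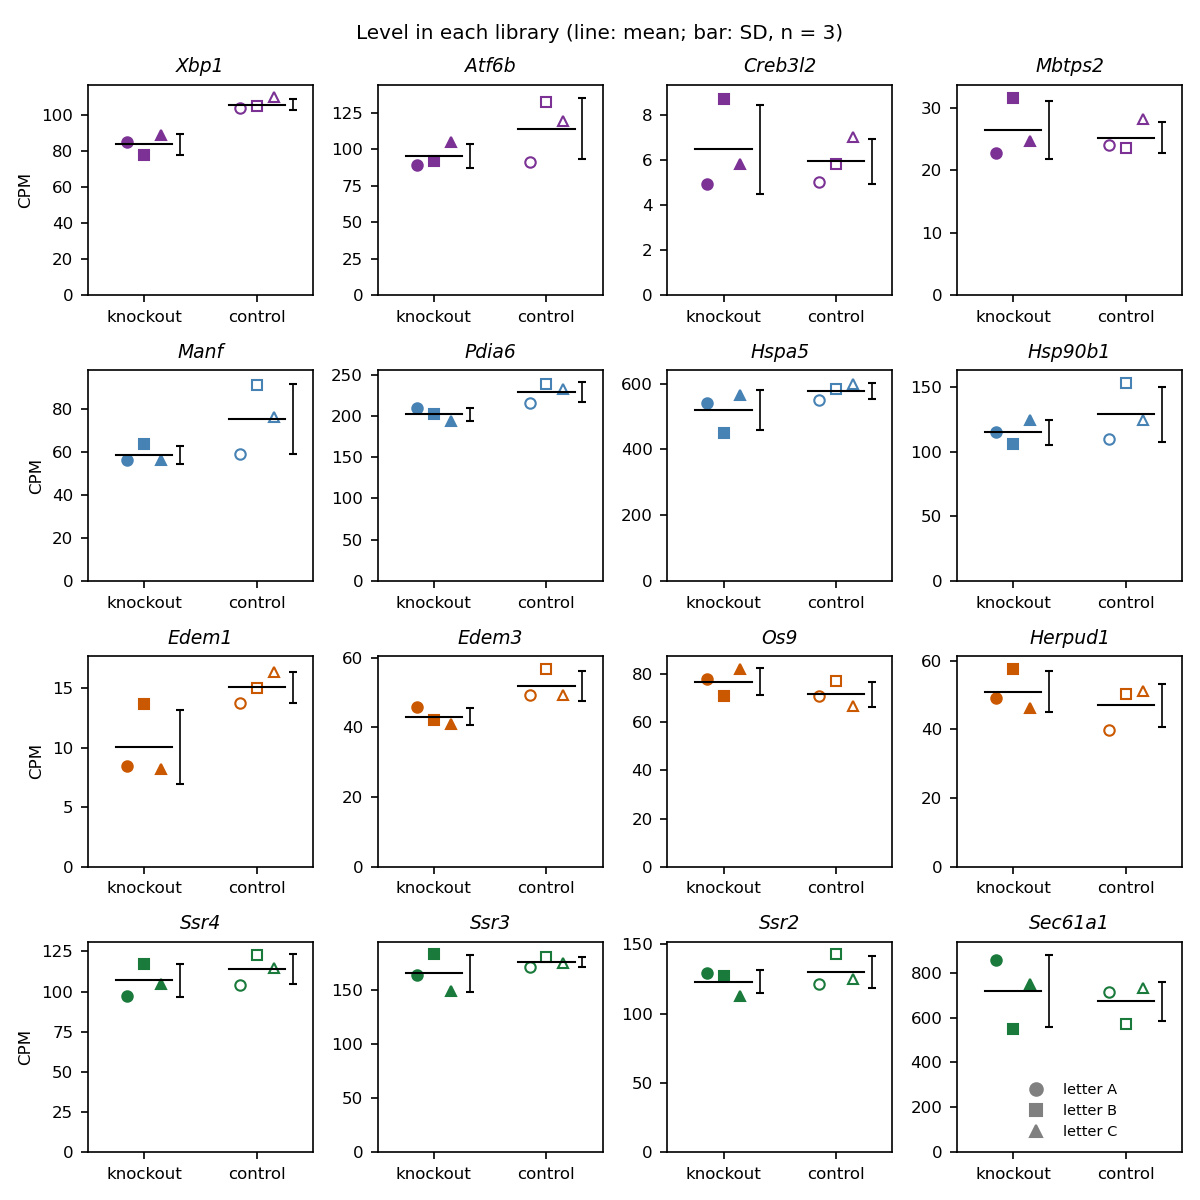
Level in CPM (vertical axes, from 0) of 16 members, the 4 with the smallest p of each role, in the knockout (filled) and control (open) libraries; circles, squares and triangles are letters A, B and C, lines the means and bars the SD (n = 3 each). The genotypes are apart in Xbp1, Pdia6, Edem1 and Edem3 and overlap in the other 12.

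The role groups are set beside each other here, with no test of the differences between them. Below 0 lay 14 of 15 chaperones (median -0.12), 5 of 6 translocation genes (-0.064), 6 of 9 degradation genes (-0.10) and 2 of 7 sensors (0.04). The sensors summed to 367, 368 and 406 CPM in the knockout and 386, 431 and 430 CPM in the control libraries, where only knockout C and control A overlapped. The translocation genes summed to 1458, 1159 and 1329 CPM in the knockout and 1302, 1235 and 1360 CPM in the control libraries, a range set mostly by Sec61a1. In letter A, where the genotypes differed least in Slc7a5 and in reads outside exons, the chaperone sums were 2023 CPM in the knockout and 2003 CPM in the control library. The part of that share of reads in the differences of letters B and C was not tested.

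**Figure D3:**
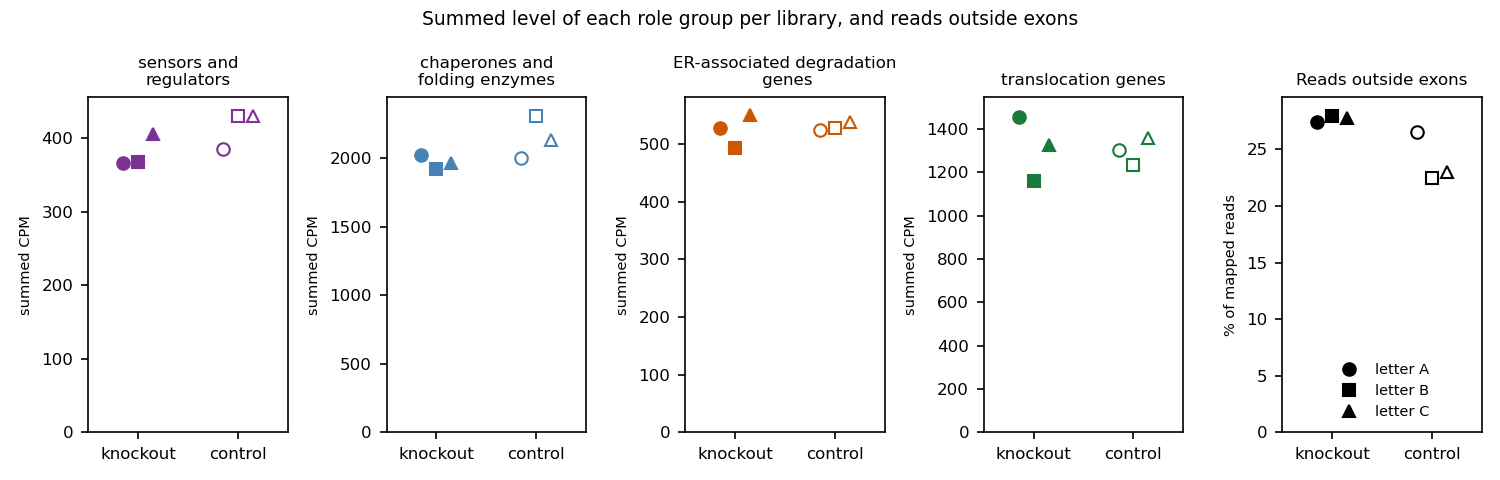
Summed level in CPM of the members of each role (first 4 panels) and reads outside exons as a percent of mapped reads (last panel), all from 0, in knockout (filled) and control (open) libraries, with circles, squares and triangles for letters A, B and C. Control B has the highest chaperone sum (2310 CPM) and the lowest share of reads outside exons (22.5%).

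Genes downstream of ATF4 gave calls in the same libraries. Of all 14913 genes, 3.19% were higher at an unadjusted p under 0.05, 3 genes were called higher by edgeR and 49 in the paired fit. Of 18 ATF4 targets, all had a fitted change above 0 (median 0.65), 14 reached an unadjusted p under 0.05 on that side, 2 were called higher by edgeR and 11 in the paired fit. The 2 rose in both fits: Slc7a3, a cationic amino acid carrier, was at 44.9, 45.2 and 33.1 CPM in the knockout against 10.6, 9.05 and 14.8 CPM in the control libraries (log2 change 1.83 ± 0.18, adjusted p = 0.000565). Eif4ebp1, a translation repressor, was at 15.1, 13.6 and 10.2 CPM in the knockout against 2.01, 4.47 and 2.95 CPM in the control libraries (log2 change 2.06 ± 0.26, adjusted p = 0.00445, and 0.0600 without knockout B). The other 9 were called in the paired fit only, and are given with their unpaired log2 changes. They were Chac1 (1.75 ± 0.29), Sesn2 (1.54 ± 0.25), Atf5 (1.16 ± 0.18), Asns (0.85 ± 0.17), Shmt2 (0.75 ± 0.16), Pycr1 (0.73 ± 0.21), Mthfd2 (0.71 ± 0.13), Cars (0.59 ± 0.12) and Psat1 (0.50 ± 0.12). They serve glutathione turnover, stress signalling, amino acid and folate metabolism and tRNA charging. The list was drawn up with earlier results of these data known, so its direction is no independent evidence.

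The 8 genes of the PERK arm were mixed (5 above 0, median 0.12). Eif2ak3, the gene of PERK, was at 33.8, 38.7 and 31.3 CPM in the knockout against 35, 53.7 and 48.1 CPM in the control libraries (log2 change -0.40 ± 0.15, edgeR adjusted p = 0.621). Trib3, a pseudokinase that both ATF4 and the stress factor CHOP act on, was at 6.07, 4.82 and 2.6 CPM in the knockout against 2.21, 1.98 and 2.24 CPM in the control libraries. Its libraries did not overlap, with a log2 change of 1.06 ± 0.32 that did not pass (edgeR adjusted p = 0.473).

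Other genes of the secretory pathway gave no call in the unpaired fit. The median log2 change was 0.016 over 29 further folding and glycan enzymes, -0.059 over 20 further degradation genes, -0.018 over 18 further translocation genes and -0.021 over 16 genes of ER export and retrieval. The smallest p belonged to Mogs (-0.23 ± 0.11) and Erp44 (-0.23 ± 0.13) among the folding enzymes, to Ube2j1 (-0.25 ± 0.11) and Ubxn4 (0.19 ± 0.11) among the degradation genes and to Sec24d (-0.35 ± 0.19) and Sec31a (-0.18 ± 0.11) among the export genes. Among the translocation genes the paired fit called 1. It was Spcs3, a subunit of the signal peptidase, which fell in the paired fit (unpaired log2 change -0.56 ± 0.28, adjusted p = 0.0475 with the replicate block and 0.766 without it). The 6 substrates of IRE1-dependent mRNA decay had a median of 0.072, with 0.29 ± 0.19 for Pdgfrb and 0.56 ± 0.40 for Bloc1s1. Over 21 cytosolic and mitochondrial chaperones the median was -0.048, with -0.30 ± 0.10 for Hsph1 and -0.19 ± 0.11 for Hsp90ab1. The ER chaperone median of -0.12 was the lowest of these list medians, and the difference between lists was not tested.

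**Figure D4:**
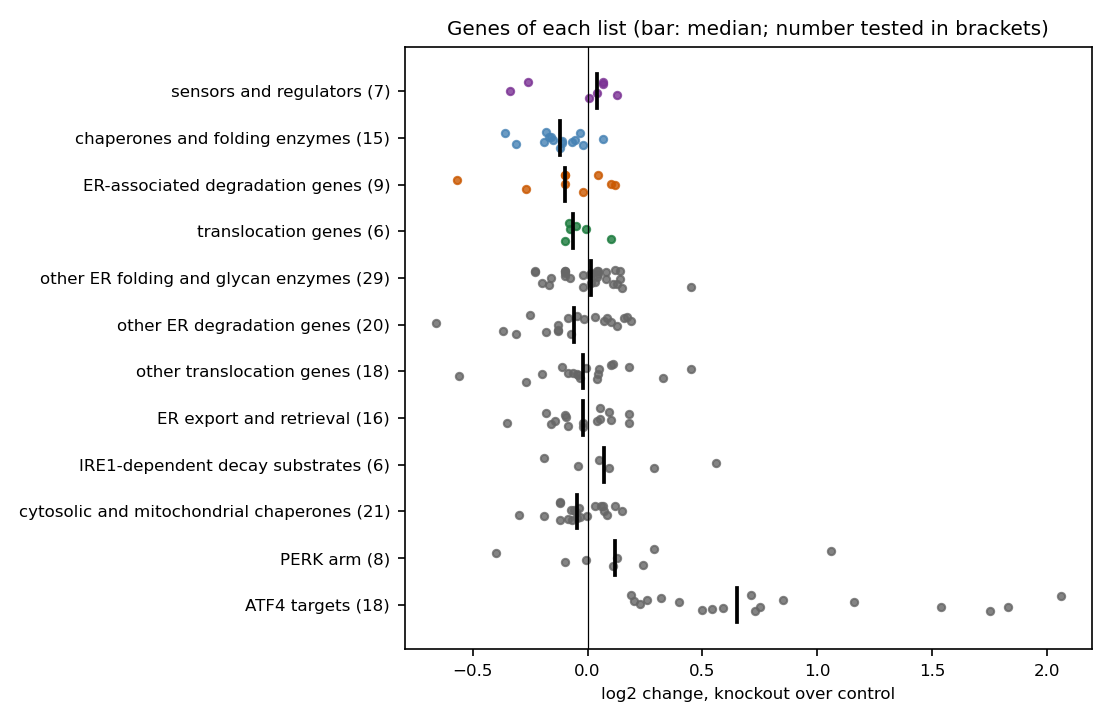
Log2 change, knockout over control (horizontal axis), of each tested gene (points) in the 4 role groups of members (coloured) and 8 further lists (grey), with black bars at the medians and the number tested in brackets. The ATF4 targets all lie above 0 with a median of 0.65, while the medians of the role groups lie between -0.12 and 0.04.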

How the data were processed

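Cortical polyA libraries were made with a strand-preserving kit (Lexogen SENSE) and sequenced on a HiSeq instrument, per the labels' protocols. The deposited tables hold raw counts of reads per gene, made by the authors with STAR 2.5.4 on GRCm38 (mm10), per the submitters' processing notes; counts on the strand holding more reads were used, and the 4 summary lines were left out. No read was listed as mapping to several places.

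Genes were kept by filterByExpr (14913 of 52550 identifiers) and tested with edgeR 4.0.16 (R 4.3.3): TMM scaling, robust quasi-likelihood F-test, two-sided, Benjamini-Hochberg over all genes. CPM carry TMM scaling; TPM use GENCODE M21 exon lengths. Alternatives were a replicate block, DESeq2 1.42.0, its size factors, no filter, unstranded counts and libraries left out. Scripts were tested on simulated data.

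Libraries share the letters A to C across genotypes. Deviations from the genotype means correlated at 0.417, 0.342 and 0.211 within letters and at most at -0.031 between them. Without the genes of X and Y the values were 0.393, 0.242 and 0.182 within letters and at most 0.036 between them. Letters were therefore taken as pairs in the replicate block fit, also called the paired fit, while the main fit was unpaired. What the letters mark is not given in the sources used here.

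The members and lists were chosen with earlier results of these data known. Library values are given for the 4 members of each role with the smallest p. From further lists, genes called in either fit are named, otherwise the 2 with the smallest p. Ddit3 and Atf4 were added to these after their values were seen. Depth was 8249436 to 10372582 gene reads per library.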

Additional observations from a re-analysis of the deposited data

How the results depend on the processing

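The near absence of member calls held under the alternatives, but the direction of 19 members did not. The medians of the sensors, degradation genes and translocation genes also changed sign with some libraries left out. Members called ranged from 0 to 1 with libraries left out, and were 0 under the other alternatives (replicate block, DESeq2, its size factors, no filter on low counts, unstranded counts). Members below 0 numbered 23 to 29 under all 14 alternatives. Genes called over the whole table moved from 5 to 126 with the replicate block, 26 with DESeq2 and 71 without the filter, and from 1 to 228 with libraries left out. The replicate block changed no member's call; among the further lists it added 9 ATF4 targets and Spcs3. With libraries left out the median of the sensors ran from -0.12 to 0.041, that of the degradation genes from -0.11 to 0.022, that of the chaperones from -0.19 to -0.04 and that of the translocation genes from -0.10 to 0.014.

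Of 518 values of the 37 members, 466 kept direction and side of the threshold, 2 passed it and 50 changed sign, and the cause was not tested. The changes of sign fell in 19 members, whose log2 changes in the main fit ran from -0.16 for Hsp90b1 to 0.13 for Creb3l2. Their ranges with libraries left out were, among sensors, -0.10 to 0.39 for Ern1, -0.15 to 0.14 for Atf6, -0.15 to 0.29 for Creb3l2, -0.026 to 0.10 for Mbtps1 and -0.12 to 0.18 for Mbtps2. Among chaperones they were -0.27 to 0.032 for Hsp90b1, -0.12 to 0.079 for Canx, -0.50 to 0.22 for Pdia4, -0.11 to 0.0026 for P4hb, -0.037 to 0.20 for Dnajb9, -0.19 to 0.16 for Dnajb11 and -0.32 to 0.03 for Creld2. Among degradation genes they were -0.016 to 0.12 for Sel1l, -0.23 to 0.026 for Syvn1, -0.25 to 0.078 for Edem2 and -0.11 to 0.084 for Derl1. Among translocation genes they were -0.05 to 0.26 for Sec61a1, -0.10 to 0.11 for Sec61b and -0.13 to 0.052 for Ssr1. Atf6 was -0.0044 with the replicate block and -0.016 on unstranded counts, and Sec61a1 -0.065 on unstranded counts.

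With 3 libraries a genotype, log2 changes of the members had SEs near 0.13, and Derl3, at 2 to 7 reads, was too shallow to test.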

Other observations

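Other cell markers also differed between libraries, in lists set beside 7490 of all 14913 genes above 0. Interneuron markers, whose cells keep Slc7a5, summed to 1921, 1693 and 1563 CPM in the knockout libraries, by letter, against 1627, 1510 and 1554 CPM in the control libraries. The genotypes overlapped, with 9 of 10 above 0 (median log2 change 0.24), and Npy went the other way (-0.30 ± 0.14). Progenitor markers summed to 468, 464 and 435 CPM in the knockout and 387, 438 and 398 CPM in the control libraries, with overlap and with 7 of 8 above 0. Oligodendrocyte lineage markers summed to 218, 201 and 205 CPM in the knockout and 227, 236 and 269 CPM in the control libraries, with 6 of 6 below 0. Above 0 lay 7 of 8 markers of microglia, 7 of 7 of endothelium, 3 of 5 of pericytes and 6 of 6 tested of meningeal fibroblasts. The count was 3 of 9 for excitatory neurons, 2 of 6 for astrocytes, 0 of 5 for red cells and 0 of 3 tested for choroid plexus. The part of these cells in the members' levels was not tested.

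Among the further degradation and translocation genes, 3 had high and low values in the same libraries, and were chosen after their values were seen. Vcp, the ATPase that extracts substrates from the ER membrane, was at 156, 307 and 174 CPM in the knockout libraries (A, B, C) against 164, 328 and 335 CPM in the control libraries. Rnf5, a ubiquitin ligase of the ER membrane, was at 24, 70.7 and 21.1 CPM in the knockout and 32.7, 80.4 and 70.6 CPM in the control libraries. Spcs3 was at 11.1, 21.8 and 13.2 CPM in the knockout and 15.9, 25.1 and 27.2 CPM in the control libraries. In each, both letter B libraries and control C were high and the others low, and each knockout library lay below the control of its letter.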
